A study of Homo sapiens with 6 samples.

Results

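The mitochondrial ribosomal protein genes were taken as all protein-coding genes of GENCODE Release 44 whose symbol begins with *MRPL* or *MRPS* followed by a number. This rule gave 78 of the 62700 genes listed, of which 49 carried the *MRPL* symbol of the large subunit and 29 the *MRPS* symbol of the small subunit. The rule used names only and no measured value. A further 79 pseudogenes and 9 lncRNAs with matching symbols were left out.

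Mitochondria keep a ribosome of their own, which translates the few mRNAs of the mitochondrial genome into core subunits of the respiratory chain and of ATP synthase. Its rRNAs are transcribed inside the organelle, whereas all of its proteins are encoded in the nucleus, translated in the cytosol and imported. Many of these proteins descend from bacterial ribosomal proteins and keep their numbers, and others were added during evolution. The large subunit forms peptide bonds and the small subunit holds the mRNA, as in other ribosomes.

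The libraries came from SK-Hep-1, a human cell line derived from a liver adenocarcinoma, which the study describes as endothelial-derived. In 3 libraries the cells carried a lentiviral shRNA against the lncRNA *RAB30-DT*, and 3 libraries served as control. The study's methods name more than a single shRNA vector against *RAB30-DT*, and the titles do not say which was used. For the control cells, the title says shControl and the genotype entry WT, so whether they received a vector is not settled by the labels. The study's stable lines were made with a pLKO.1 vector and puromycin selection, and nothing stated that the 3 libraries of a group came from separate transductions, so the p-values measure the spread between these libraries only.

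*RAB30-DT* itself stood at 18.16, 11.51 and 13.91 TPM (a length-corrected share of all transcripts in a library) in the control libraries and at 11.94, 10.85 and 6.50 TPM in the knockdown libraries. The groups overlapped, and the log2 fold change was −0.55 on the log2(TPM + 1) scale. It was −0.30 without knockdown replicate 3 and −0.24 with libraries weighted by their spread. An exact two-sided permutation test gave p = 0.2, where 3 against 3 libraries cannot go below 0.1. The study reports a separate qPCR check of the knockdown in SK-Hep-1 cells. Of 4 mesenchymal markers, *VIM* stood at 3793 TPM or more and *THY1* at 76.0 TPM or more in every library, while *PDGFRB* and *COL1A1* stayed at 5.26 TPM or less. *THY1* and *PDGFRB* were lower in all knockdown libraries than in all control libraries (log2 fold changes −0.54 and −1.22, adjusted p = 0.226 and 0.12) and *VIM* was higher in all (0.25, adjusted p = 0.225), and the part of these in the results for the ribosomal genes was not tested. In contrast, *ALB*, *APOB*, *TTR* and *HNF4A* of hepatocytes, *KDR* of endothelial cells and *PTPRC* of blood cells were listed at 0 in all 6. Only *SERPINA1* of the 6 hepatocyte markers passed the filter, at 18.11 to 37.19 TPM. It was higher in all knockdown libraries than in all control libraries (log2 fold change 0.59, adjusted p = 0.192). The 5 endothelial markers summed to 0.38 TPM or less in every library. Apart from *SERPINA1*, the markers of both cell types were thus at or near 0. The libraries also differed by GC content, with replicate 1 of both groups lower in GC-rich genes and replicate 3 of both groups higher. Depth was unknown, because the values hold no read number.

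All 78 genes passed the filter of a mean of at least 1 TPM. Their mean TPM over the 6 libraries ranged from 7.55 to 201, a ratio of 26.6, and 67 of the 78 lay between 20 and 150 TPM. The median gene stood at 67.1 TPM, against 20.2 TPM for the protein-coding genes tested, with 74.9 TPM for the large and 62.5 TPM for the small subunit genes. The transcripts were short, with a median of 1242 bases against 3322 for the protein-coding genes tested, and their median GC content of 48.2% was close to the 48.5% of those genes. The 78 genes lay on 21 chromosomes.

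The highest level was that of *MRPS24*, which encodes a protein of the small subunit, at 159.46, 230.37 and 266.14 TPM in the control libraries and 150.27, 183.16 and 213.88 TPM in the knockdown libraries. *MRPL12*, the stalk protein that helps to recruit translation factors to the large subunit, had 142.64, 224.00 and 258.85 TPM in control and 146.08, 166.84 and 200.23 TPM in knockdown libraries. *MRPL53*, another protein of the large subunit, had 123.54, 188.31 and 187.92 TPM against 141.19, 197.46 and 195.77 TPM. In all 3 genes the groups overlapped. Within each library *MRPS24* stood above *MRPL12*, and *MRPL53* stood above both in knockdown replicate 2 only.

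At the lower end, *MRPL50* had 8.42, 7.69 and 6.46 TPM in control libraries and 8.0, 7.01 and 7.74 TPM in knockdown libraries. *MRPL57* had 12.96, 12.42 and 12.39 TPM against 11.40, 12.25 and 12.74 TPM. *MRPS31* had 17.28, 18.02 and 12.42 TPM against 16.82, 15.51 and 17.73 TPM. The groups overlapped for each of these genes too, and the level of *MRPL50* was below that of the others in every library.

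**Figure D1:**
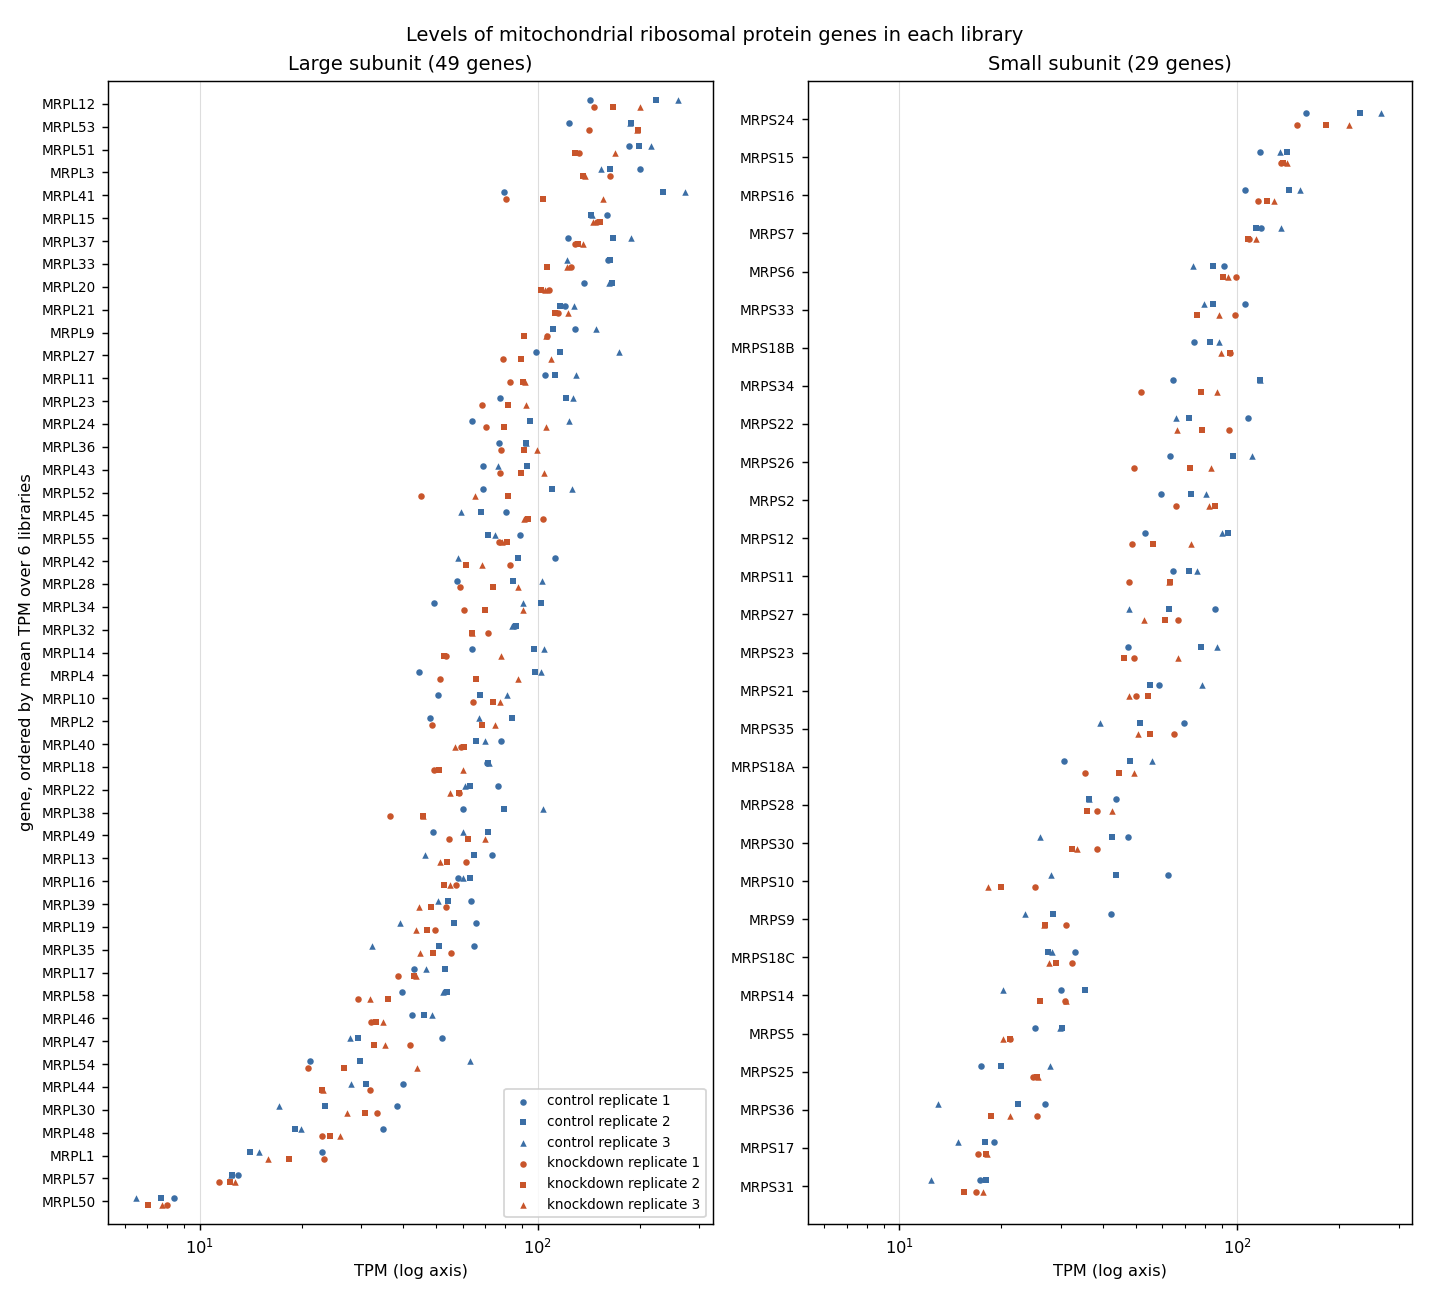
TPM of each of the 49 large subunit genes (left) and 29 small subunit genes (right) on a log axis, with blue points for control and orange points for knockdown libraries and a circle, square or triangle for replicate 1, 2 or 3. The levels run from 7.55 TPM (*MRPL50*, mean over the 6 libraries) to 201 TPM (*MRPS24*), and in 70 of the 78 genes the control points span a wider fold than the knockdown points.

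The knockdown question for this machinery is whether its mRNAs changed with *RAB30-DT* depletion. None of the 78 genes passed an adjusted p of 0.05 in limma, where 146 of the 14020 genes tested, or 1.04%, did. The smallest adjusted p was 0.112, for *MRPL38*. In bulk RNA, fewer cells with a transcript and less of it per cell cannot be told apart. At an unadjusted p under 0.05, 10 members (12.8%) were lower and 1 (1.28%) was higher, against 9.7% and 7.06% of all genes tested. Among the protein-coding genes tested these shares were 10.7% and 6.3%. Every knockdown library lay below every control library in 16 members (20.5%) and above in 2 (2.56%). Of all genes tested, 13.4% and 9.89% were apart in these directions, and of the protein-coding ones 14.8% and 9.05%.

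The log2 fold change was below 0 in 53 members and above 0 in 25. Thus 67.9% were on the lower side, against 53.7% of all genes tested and 56.8% of the protein-coding ones. The median was −0.13, against −0.04 for all genes tested and −0.06 for the protein-coding ones. After quantile normalization only 40 members, or 51.3%, were on the lower side, against 50.2% of all genes tested, and the median was −0.02. A median-of-ratios scaling gave 49 members, or 62.8% against 50.4% of all genes tested, and a median of −0.09, and rescaling without mitochondrially encoded genes gave 52 members, or 66.7% against 53.2%. Of these 3 scalings, quantile normalization was the one that brought the members close to all genes tested.

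The precision was limited. The standard error of a member's log2 fold change had a median of 0.20 and ran from 0.13 to 0.46. In 14 members the 95% confidence interval lay within 0.5 of 0 on either side, so that a larger log2 fold change than that was outside their interval, while in 8 members it reached beyond 1.

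By subunit, 36 of the 49 large subunit genes had a log2 fold change below 0, with a median of −0.19, and 17 of the 29 small subunit genes did, with a median of −0.04, which turned to 0.07 with quantile normalization, to 0.002 with median-of-ratios scaling and to 0.06 without control replicate 1. Of the large subunit genes 8 were lower and 1 higher at an unadjusted p under 0.05, and of the small subunit genes 2 were lower and 0 higher. The groups were apart with the knockdown libraries below in 12 large and 4 small subunit genes, and above in 1 of each. As shares, 16.3% of the large and 6.9% of the small subunit genes were lower at an unadjusted p under 0.05, against 9.7% of all genes tested, and 24.5% and 13.8% were apart with the knockdown below, against 13.4%. *MRPS18A* and *MRPS30* encode proteins that structures place in the large subunit, and counting them there gave medians of −0.18 for 51 and −0.04 for 27 genes. All other members, *MRPS36* among them, were placed by symbol only, and their presence in the ribosome was not checked. The difference between the subunits was not tested.

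The summed TPM of the 49 large subunit genes was 3815, 4424 and 4588 in the control libraries and 3395, 3552 and 3890 in the knockdown libraries. That of the 29 small subunit genes was 1839, 2021 and 2037 against 1727, 1776 and 1874. In both subunits the groups overlapped, with knockdown replicate 3 above control replicate 1. The 44 genes numbered after a bacterial protein had a median log2 fold change of −0.13, with 32 below 0, and the 34 without such a number had −0.10, with 21 below 0.

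**Figure D2:**
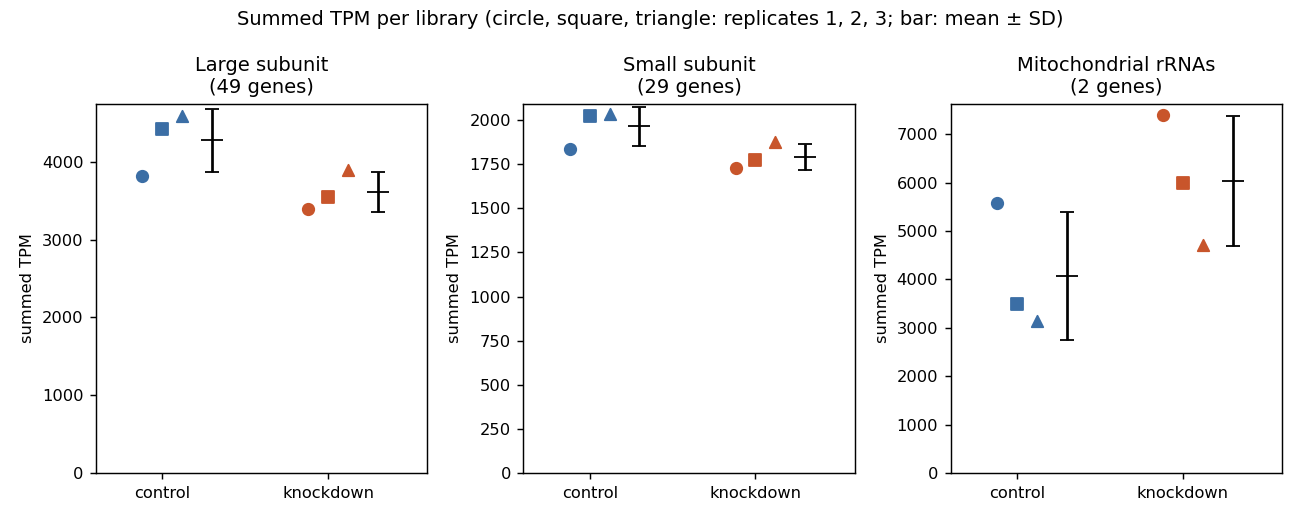
Summed TPM per library for the large subunit genes, the small subunit genes and the mitochondrially encoded rRNAs *MT-RNR1* and *MT-RNR2*, with circle, square and triangle for replicates 1, 2 and 3 and a bar for the mean ± SD of 3 libraries. In both subunits knockdown replicate 3 lies above control replicate 1, and the rRNA sum of control replicate 1 (5575) lies above that of knockdown replicate 3 (4709).

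The lowest log2 fold change was that of *MRPS10* (ENSG00000048544.6, chr6:42206807-42217861 on hg38), which encodes a protein of the head of the small subunit. It had 62.38, 43.79 and 28.19 TPM in the control libraries and 25.14, 20.05 and 18.34 TPM in the knockdown libraries. All 3 knockdown libraries were below all 3 control libraries, but control replicate 3 stood close to knockdown replicate 1. The mean was 44.8 ± 17.1 TPM against 21.2 ± 3.54 TPM (SD, n = 3 each), and limma gave a log2 fold change of −0.99 (SE 0.29, adjusted p = 0.149). Leaving out single libraries moved this value between −1.28 and −0.72.

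*MRPL38* (ENSG00000204316.13, chr17:75898644-75905093), a protein of the central protuberance at the top of the large subunit, followed. It had 60.04, 79.67 and 103.81 TPM in control and 36.47, 45.83 and 45.75 TPM in knockdown libraries, so that the groups did not overlap. The log2 fold change was −0.88 (SE 0.23, adjusted p = 0.112). Without control replicate 1 it was −1.08, with an adjusted p of 0.0312, in a fit in which 3.49% of all genes tested passed the threshold.

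*MRPL20* (ENSG00000242485.6, chr1:1401909-1407293) encodes an rRNA-binding protein of the large subunit whose bacterial counterpart acts early in assembly. Its 137.28, 165.71 and 162.07 TPM in control libraries stood apart from 107.61, 102.07 and 105.10 TPM in knockdown libraries. The 3 knockdown libraries lay within a narrow range, and the log2 fold change was −0.55 (SE 0.14, adjusted p = 0.119).

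*MRPL58* (ENSG00000167862.10), a peptidyl-tRNA hydrolase built into the large subunit that releases stalled peptides, had 39.70, 53.92 and 52.30 TPM in control and 29.31, 36.15 and 31.85 TPM in knockdown libraries. *MRPL51* (ENSG00000111639.8), a protein without a bacterial number, had 186.41, 199.50 and 215.63 TPM against 132.44, 129.01 and 169.05 TPM. The groups were apart in both genes, with log2 fold changes of −0.56 (SE 0.19, adjusted p = 0.19) and −0.49 (SE 0.16, adjusted p = 0.184). *MRPL51* overlaps *NCAPD2* on the opposite strand, which stood at a mean of 152.6 TPM, and whether the counting used strand was not stated, so reads of this pair may not have been separated. In all, 22 members overlapped another gene with a mean above 5 TPM, 5 of them on the same strand.

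In *MRPL52*, *MRPL41* and *MRPL14*, the other members among the 8 lowest, the groups overlapped. *MRPL52*, of the central protuberance, had 68.64, 109.91 and 126.59 TPM in control and 45.04, 81.86 and 65.22 TPM in knockdown libraries (log2 fold change −0.65, SE 0.29, and −0.43 without knockdown replicate 1). *MRPL14*, which binds the assembly factor MALSU1 on the face that later meets the small subunit, had 63.72, 97.60 and 104.03 TPM against 53.64, 52.69 and 77.64 TPM (log2 fold change −0.51, SE 0.24).

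The least certain of the 8 was *MRPL41* (ENSG00000182154.8), with 79.15, 235.16 and 273.19 TPM in control and 80.32, 103.54 and 155.69 TPM in knockdown libraries. Replicate 1 was the lowest of both groups, and this transcript had a GC content of 66.7%. The log2 fold change was −0.65 with an SE of 0.46. It was −1.21 without control replicate 1 (adjusted p = 0.0488), −0.43 without control replicate 2, −0.32 without control replicate 3 and −0.44 without knockdown replicate 1.

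On the other side, *MRPL45* (ENSG00000278845.5, chr17:38297023-38323217) had the highest log2 fold change. Its protein lies at the exit of the peptide tunnel and ties the ribosome to the inner membrane. It had 80.40, 67.95 and 59.17 TPM in control and 103.22, 93.41 and 91.22 TPM in knockdown libraries, all 3 above all 3, with a log2 fold change of 0.48 (SE 0.17, adjusted p = 0.214). *MRPS18B* was the other gene whose knockdown libraries all lay above the control libraries, at 95.09, 94.87 and 89.74 TPM against 74.52, 83.05 and 88.04 TPM (log2 fold change 0.19, adjusted p = 0.552).

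In the 6 others among the 8 highest the groups overlapped. *MRPL30* had 38.42, 23.39 and 17.12 TPM in control and 33.45, 30.90 and 27.32 TPM in knockdown libraries, for a log2 fold change of 0.28 (SE 0.28), which was 0.58 without control replicate 1 and 0.021 without control replicate 3. *MRPS25*, *MRPS6*, *MRPL43*, *MRPL1* of the mobile stalk near the tRNA exit site, and *MRPS2* had log2 fold changes of 0.24, 0.18, 0.18, 0.15 and 0.14, with adjusted p from 0.576 to 0.793.

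**Figure D3:**
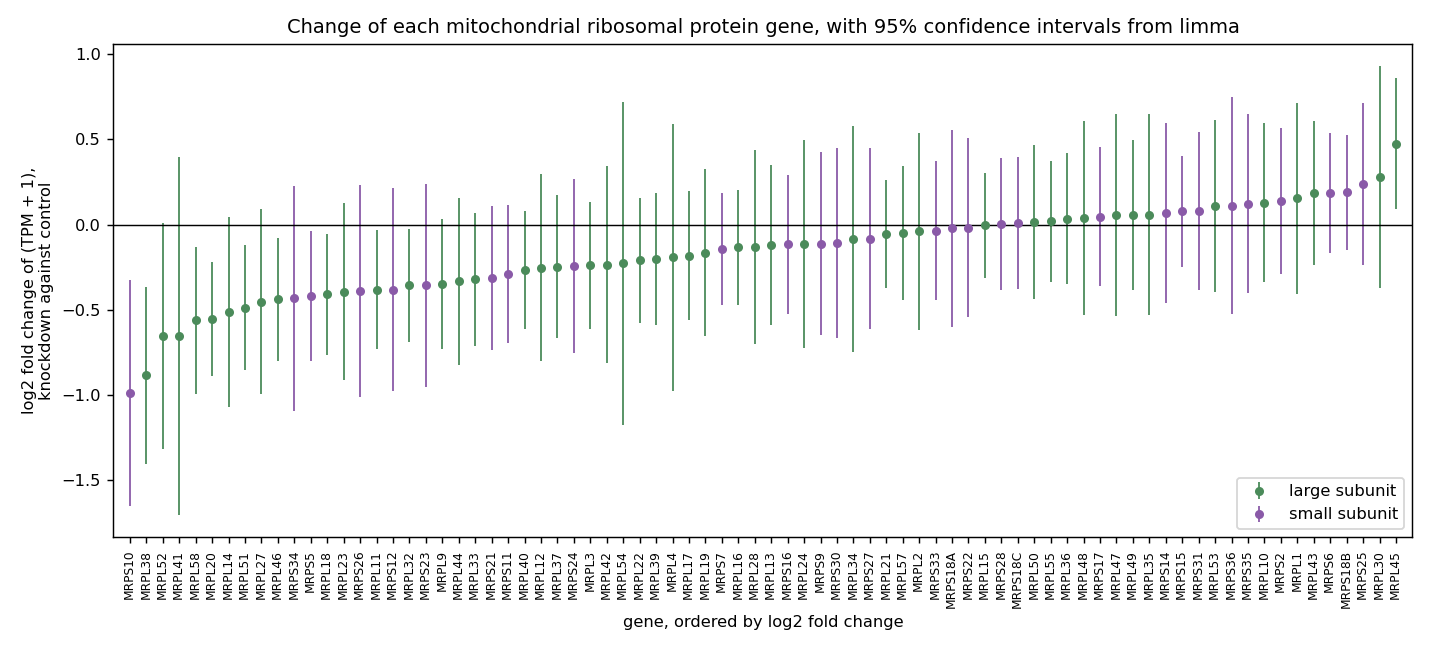
Log2 fold change of TPM + 1, knockdown against control, for each of the 78 genes in order of size, with 95% confidence intervals from limma and the large subunit in green, the small subunit in purple. The points run from −0.99 (*MRPS10*) to 0.48 (*MRPL45*), and no gene passed an adjusted p of 0.05.

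Within the large subunit, the genes listed for the central protuberance were the structural group with the lowest median among the 3 examined. The list need not be complete, and *MRPL58* was not on it. In bacterial ribosomes this crest holds a small rRNA that the human mitoribosome lacks. Of the 9 genes listed, 7 had a log2 fold change below 0, with a median of −0.41. At an unadjusted p under 0.05, 3 were lower, and 4 had all knockdown libraries below all control libraries. The counts of 3 and 4 are 33.3% and 44.4% of these genes, against 9.7% and 13.4% of all genes tested. *MRPL46* had 42.39, 46.01 and 48.78 TPM in control and 32.20, 33.21 and 34.87 TPM in knockdown libraries (log2 fold change −0.44, adjusted p = 0.216), and *MRPL18* had 70.74, 71.40 and 71.51 TPM against 49.29, 51.12 and 60.18 TPM (−0.41, adjusted p = 0.236). Both were named after their values were seen. *MRPL48* was at the other end of this group, with 34.83, 19.13 and 19.88 TPM against 22.94, 24.23 and 25.96 TPM and a log2 fold change of 0.04.

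The summed TPM of the 9 genes was 589, 622.2 and 714.6 in control and 439.2, 499.6 and 510.3 in knockdown libraries, which did not overlap. *MRPL38* and *MRPL52*, described above, are among these genes. The list was chosen with earlier results of these data known, so its counts, median and sums are a description. The group was not tested.

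The stalk that recruits translation factors, with 5 genes listed, had a median log2 fold change of −0.23 and 3 genes below 0. *MRPL11*, at its base, had 104.81, 112.36 and 129.75 TPM in control and 82.86, 90.33 and 91.32 TPM in knockdown libraries, which were apart (log2 fold change −0.38, adjusted p = 0.257). *MRPL10*, which anchors the stalk, had 50.74, 67.51 and 81.30 TPM against 64.27, 73.62 and 77.24 TPM (0.13).

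Of the 6 genes listed for the peptide exit tunnel, 5 had a log2 fold change below 0, with a median of −0.21, and the sixth was *MRPL45*. The lowest of them was *MRPL23*, at the rim of the tunnel, with 77.09, 120.87 and 126.80 TPM in control and 68.44, 81.46 and 92.50 TPM in knockdown libraries (−0.39, adjusted p = 0.422). The groups overlapped for *MRPL23*.

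The paralogs *MRPS18A*, *MRPS18B* and *MRPS18C* each fill a different place in the ribosome, although they descend from 1 bacterial protein. *MRPS18A* had 30.63, 48.00 and 55.77 TPM in control and 35.37, 44.68 and 49.45 TPM in knockdown libraries, and *MRPS18C* had 32.98, 27.55 and 28.22 TPM against 32.38, 29.11 and 27.78 TPM. Their log2 fold changes were −0.02 and 0.01, and both changed sign under several alternatives. In each library *MRPS18B* stood above both of its paralogs.

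The libraries of a group differed among themselves. The widest ratio between libraries had a median over members of 1.49 among the control and 1.22 among the knockdown libraries, and it was the wider in control in 70 of the 78. It passed 2 in 8 members among the control and in 1 among the knockdown libraries. The differences between libraries of a group went with GC content. Across the 78 genes, the log2 difference of control replicate 3 to control replicate 1 had a Spearman correlation of 0.819 with the GC content of the transcript, and 0.707 across the 11727 protein-coding genes tested. For the deviation from the mean over libraries, the correlation across members was −0.767 in control replicate 1 and −0.761 in knockdown replicate 1, and 0.753 and 0.47 in the replicates 3. These are descriptions across genes of the same libraries, and genes are not independent replicates.

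The log2 fold change between the groups had a weaker relation, with a Spearman correlation of −0.285 across members and −0.137 across the protein-coding genes. The 39 members above their median GC content had a median log2 fold change of −0.23, and the other 39 had −0.08. Removing each library's GC trend left the correlation across members at −0.109, the median of all members at −0.12, that of the large subunit at −0.15 and that of the small subunit at −0.05.

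With the GC trend removed, *MRPL38* (adjusted p = 0.0137), *MRPS10* (0.0164), *MRPL20* (0.0284) and *MRPL46* (0.0493) passed the threshold as lower and *MRPL45* (0.0263) as higher. In that fit 8.79% of all genes tested passed, 4.83% as lower and 3.96% as higher, beside 5.13% and 1.28% of the members. When libraries were weighted by their spread, 16 members passed as lower and *MRPL45* as higher, or 20.5% and 1.28% of them, where 13.8% of all genes tested passed as lower and 9.18% as higher. The weights were 3.00 for control replicate 2 and 4.39 for knockdown replicate 2, against 0.948 or less for the other libraries. The weighted fit thus rested mainly on replicate 2 of each group.

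**Figure D4:**
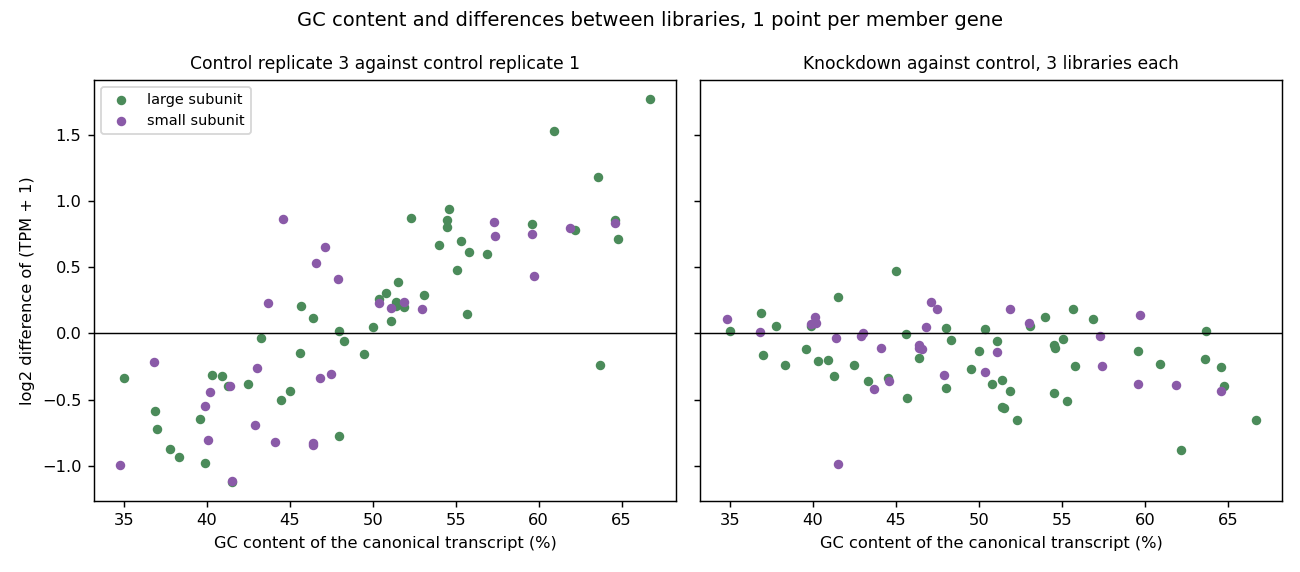
Log2 difference of TPM + 1 against the GC content (%) of the canonical transcript for the 78 genes, for control replicate 3 against control replicate 1 (left) and for knockdown against control with 3 libraries each (right). The difference between the control libraries follows GC content (Spearman correlation 0.819), and that between the groups does so less (−0.285).

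The other parts of the mitochondrial translation system were read from the same fit, and none of the 86 genes tested on these lists passed an adjusted p of 0.05. With the GC trend removed 9 of the 86 passed, where 8.79% of all genes did: *NOA1*, *RMND1*, *PARS2* and *MT-RNR2* were higher, and *MTERF3*, *NGRN*, *RCC1L*, *SARS2* and *GABPB1* were lower. With library weights 10 passed as lower and 6 as higher, where 13.8% and 9.18% of all genes did. Of the 5 mitoribosomal proteins with other symbols, 3 had a log2 fold change below 0, with a median of −0.07. *AURKAIP1*, of the small subunit, had 89.93, 161.02 and 190.77 TPM in control and 82.95, 114.85 and 152.21 TPM in knockdown libraries (−0.31). *PTCD3*, also of the small subunit, had 54.06, 39.23 and 44.43 TPM against 53.88, 52.27 and 42.15 TPM (0.11). The groups overlapped in both.

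Of the 26 assembly factors, which process the rRNA and fold the subunits, 18 were below 0, with a median of −0.18, and at an unadjusted p under 0.05 4 were lower and 1 was higher, or 15.4% and 3.85%, against 9.7% and 7.06% of all genes tested. *MALSU1*, which blocks the joining of immature large subunits, had 66.35, 89.50 and 113.48 TPM in control and 43.91, 52.68 and 66.08 TPM in knockdown libraries. Knockdown replicate 3 was just below control replicate 1, and the log2 fold change was −0.70 (SE 0.24, adjusted p = 0.199). *NOA1*, a GTPase of small subunit assembly, had 23.16, 20.94 and 19.39 TPM against 32.44, 36.41 and 32.95 TPM, apart in the other direction (0.66, SE 0.17, adjusted p = 0.112).

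The 19 translation factors had 7 genes below 0 and a median of 0.15. *SLIRP*, a partner of LRPPRC that keeps mitochondrial mRNAs stable, had 215.25, 314.22 and 274.05 TPM in control and 209.69, 177.45 and 201.38 TPM in knockdown libraries, which were apart (−0.43, adjusted p = 0.26). *RMND1*, an inner membrane protein needed for mitochondrial translation, had 19.90, 12.55 and 11.20 TPM against 28.46, 24.57 and 18.84 TPM, which overlapped (0.70, adjusted p = 0.23).

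Among the 22 genes that charge mitochondrial tRNAs, 13 were below 0, with a median of −0.09, and *GARS1* and *KARS1* of this list also serve the cytosol. *SARS2*, for serine, had 17.93, 25.61 and 35.55 TPM in control and 12.43, 16.63 and 15.25 TPM in knockdown libraries (−0.75, adjusted p = 0.208). *PARS2*, for proline, had 3.16, 4.01 and 2.55 TPM against 6.24, 5.90 and 5.87 TPM (0.74, adjusted p = 0.158). In both genes the groups were apart.

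Of 13 regulators of mitochondrial biogenesis and transcription, 12 were tested and 9 were below 0, with a median of −0.09, and *PPARGC1A* stood at 0.13 TPM or less in every library. *GABPB1* and *GABPA* encode the partners of 1 transcription factor, the GA-binding protein, and were the lowest and the highest of the list. *GABPB1* had 31.81, 15.23 and 17.62 TPM in control and 13.36, 10.55 and 11.58 TPM in knockdown libraries, apart (−0.75, adjusted p = 0.233). *GABPA* had 18.73, 12.14 and 10.26 TPM against 25.76, 17.66 and 14.47 TPM, overlapping (0.47, adjusted p = 0.45).

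The rRNAs of the mitoribosome had log2 fold changes above 0. *MT-RNR2*, of the large subunit, had 3826, 2441 and 2112 TPM in control and 5647, 4534 and 3617 TPM in knockdown libraries (0.74, SE 0.24, adjusted p = 0.177). *MT-RNR1*, of the small subunit, had 1749, 1056 and 1028 TPM against 1755, 1469 and 1093 TPM (0.19, adjusted p = 0.734). Both overlapped between the groups. The libraries were made from poly-A RNA, so these values need not follow the amount of rRNA in the ribosome.

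The promoters of *MRPS10*, *MRPL38* and *MRPL45*, the members at the ends of the order of log2 fold changes, are given here because motifs of the GA-binding protein, NRF1 and YY1 are known from genes of this family. Each run holds 300 bases of GRCh38.p14 as given by RefSeq, from 250 bases before to 50 after the start on the coding strand, at chr6:42217812-42218111 (minus strand), chr17:75904835-75905134 (minus strand) and chr17:38296918-38297217 (plus strand). Capitals mark matches, on either strand, to CCGGAAG for ETS factors and the GA-binding protein, GCGCANGCG for NRF1 and AANATGGC for YY1.
MRPS10: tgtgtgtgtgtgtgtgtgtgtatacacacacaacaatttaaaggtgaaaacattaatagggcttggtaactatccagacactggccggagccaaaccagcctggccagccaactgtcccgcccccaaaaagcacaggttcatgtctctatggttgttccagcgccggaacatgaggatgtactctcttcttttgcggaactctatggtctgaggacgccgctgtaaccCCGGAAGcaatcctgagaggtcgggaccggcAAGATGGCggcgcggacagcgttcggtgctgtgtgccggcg
MRPL38: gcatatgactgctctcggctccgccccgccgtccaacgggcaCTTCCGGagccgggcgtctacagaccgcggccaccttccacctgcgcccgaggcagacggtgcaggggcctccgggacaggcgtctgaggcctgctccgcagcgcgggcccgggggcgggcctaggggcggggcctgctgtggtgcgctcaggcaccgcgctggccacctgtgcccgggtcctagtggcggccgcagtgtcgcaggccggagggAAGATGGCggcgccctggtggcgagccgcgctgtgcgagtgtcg
MRPL45: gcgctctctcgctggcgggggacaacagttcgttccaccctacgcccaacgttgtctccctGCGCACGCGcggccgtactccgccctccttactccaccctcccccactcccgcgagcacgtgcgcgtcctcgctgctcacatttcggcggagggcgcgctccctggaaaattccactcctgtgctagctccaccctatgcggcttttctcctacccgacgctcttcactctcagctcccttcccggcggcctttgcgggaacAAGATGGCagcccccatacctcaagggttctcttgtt

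Of the 78 genes, 69 had a promoter in the RefSeq table, and *MRPL2*, *MRPL10*, *MRPL13*, *MRPL15*, *MRPL21*, *MRPL23*, *MRPL35*, *MRPS28* and *MRPS36* had none. CCGGAAG occurred in 42.0% of these 69, against 10.7% of all 27305 promoters and 20.4% of the 9517 promoters of protein-coding genes tested. AANATGGC occurred in 36.2%, against 6.82% and 10.8%, and GCGCANGCG in 18.8%, against 8.05% and 15.8%. The ETS and YY1 motifs share the letters AAG and could overlap, but no matches of different motifs overlapped in the 69 promoters, of which 72.5% held at least 1 motif. The median log2 fold change was −0.24 in the 29 members with CCGGAAG and −0.13 in the 40 without, −0.21 in the 25 with AANATGGC and −0.15 in the 44 without, and −0.11 in the 13 with GCGCANGCG and −0.18 in the 56 without. *MRPS10* and *MRPL38*, at the lower end, and *MRPL45*, at the upper end, all carried the YY1 motif.

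An earlier scan of these same libraries had singled out the 7 bases GAGTGAA in 3′UTRs of genes that were lower in the knockdown, so its match to members is a description and not independent of these data. It occurred in the 3′UTR of 5 of the 78 members (6.41%), against 12.5% of 11539 protein-coding genes tested, whose 3′UTRs were longer, with a median of 1338 against 464 bases. The members with the lowest log2 fold changes, *MRPS10* and *MRPL38*, were among the 5. The sites are shown with 8 bases on either side and the 7 bases in capitals.
MRPS10: agcagaaaGAGTGAAaattctat
MRPL38: agggcttgGAGTGAAagtgactc
MRPS23: gaatgaatGAGTGAAcgaatggt
MRPL42: gataaaaaGAGTGAAactctgcc
MRPS27: caggacagGAGTGAActcaaggc

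*MRPS23*, *MRPL42* and *MRPS27*, named here for the site only, had log2 fold changes of −0.36, −0.24 and −0.08 with overlapping groups. The median over the 5 was −0.36, against −0.12 for the members without the site. Over the protein-coding genes tested it was −0.14 with and −0.05 without the site, so a lower median with the site was not particular to the members.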

How the data were processed

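RNA-Seq libraries of SK-Hep-1 cells, 3 control and 3 *RAB30-DT* knockdown, were prepared from poly-A RNA. Per the study's methods, reads were trimmed with fastp, aligned with STAR and quantified with RSEM, whereas the submitters' processing notes name fastp and HISAT2 2.0.5 with hg38. The authors deposited gene-level TPM. Because TPM keep no read number, neither depth nor counting error was known, and the number of libraries set the precision. The methods name a later GENCODE release, but all 62700 versioned identifiers matched Release 44, which gave symbols, positions and transcripts.

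The TPM values were tested as log2(TPM + 1) with limma 3.58.1 in R 4.3.3 (lmFit, eBayes with trend, two-sided, all 6 libraries, no covariate) over the 14020 genes whose mean reached 1 TPM, and fold changes understate the change of low genes. P-values were adjusted over all genes tested by Benjamini-Hochberg with a threshold of 0.05. Groups came from the sample titles. No test was run on a list, which is described by counts and medians. The fit was run on simulated data with independent noise for each gene. Such data hold no GC trend shared within a library, so they cannot show how the fit behaves under it. Alternatives were pseudocounts of 0.1 and 5, no filter and a mean of at least 5 TPM, other scalings, other variance priors, library weights (arrayWeights), a loess trend with transcript GC content removed from each library (span 0.3), a replicate block, and leaving out each library. Motifs and 3′UTR sites were counted with Python 3.11.15.

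The members were picked by symbol alone, but the gene family and the other lists were chosen with earlier results of these data known. Named genes are members past the threshold, the 8 highest and 8 lowest log2 fold changes, the 3 highest and 3 lowest levels, the *MRPS18* paralogs, *RAB30-DT* and the ends of each other list. Protein sequences were not used here.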

Additional observations from a re-analysis of the deposited data

How the results depend on the processing

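The number of genes passing the threshold depended on the fit. Over all genes tested, 94 were lower and 52 higher, against 9 and 4 without a filter, 1931 and 1287 with library weights, 677 and 555 with the GC trend removed, and 6 to 307 lower and 6 to 182 higher when single libraries were left out. Without trend in eBayes 57 were lower. Of the members, 16 lower and 1 higher passed with library weights, 4 and 1 with the GC trend removed, and 0 to 2 lower and 0 higher without single libraries, the 2 being *MRPL38* and *MRPL41* without control replicate 1. At least 1 alternative brought 18 members past the threshold and 60 passed in none. The same count over all genes tested was not made, so these numbers cannot be set against a background.

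Replicate numbers are shared by the groups. Same-numbered libraries correlated in their deviations by 0.41, 0.036 and 0.279, and differently numbered ones by −0.355 to 0.111. The titles do not say whether same-numbered libraries were prepared together. The main fit did not take them as pairs, and the replicate block was run as an alternative. With the replicate block 550 of the 14020 genes tested were lower and 311 higher, beside 4 (5.13%) and 0 of the 78 members. On the other lists *MALSU1*, *RCC1L*, *NOA1*, *RMND1* and *MT-RNR2* passed. With the block and the GC trend removed, the counts over all genes tested were 616 and 440, beside 6 (7.69%) and 1 (1.28%) of the members.

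Quantile normalization moved the median log2 fold change of the members to −0.019, of the large subunit to −0.064 and of the small subunit to 0.072. The small subunit median was −0.10 with library weights and ran from −0.12 to 0.059 without single libraries, that of the large subunit from −0.22 to −0.11. Between 50 and 59 members were below 0 without single libraries. The cause of these shifts was not tested.

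Among the members named for the ends of the log2 fold changes or levels or as *MRPS18* paralogs, sign changes were found in 5. All of these had a log2 fold change near 0. *MRPL50* was at −0.010 with quantile normalization, −0.068 with library weights and −0.060 with the GC trend removed, with and without the block. *MRPS18A* was at 0.013 with median-of-ratios scaling, 0.095 with quantile normalization and 0.044 with the GC trend removed, and *MRPS18C* at −0.043 in the latter. *MRPS31* was at −0.11 with library weights. Without single libraries, the log2 fold change ran from −0.078 to 0.091 in *MRPL50*, −0.27 to 0.15 in *MRPS18A*, −0.051 to 0.088 in *MRPS18C*, −0.078 to 0.17 in *MRPS31* and −0.095 to 0.26 in *MRPL53*. Members named for other reasons changed sign in these fits too, from −0.051 to 0.28 in *MRPL10*, −0.11 to 0.31 in *MRPL48* and −0.29 to 0.13 in *MRPS27*.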
